A study of Mus musculus with 6 samples.

Results

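The 8 genes of the neuronal nicotinic acetylcholine receptor family listed here, *Chrna3*, *Chrna4*, *Chrna5*, *Chrna6*, *Chrna7*, *Chrnb2*, *Chrnb3* and *Chrnb4*, were measured by bulk RNA sequencing in the mouse cerebellum at postnatal day 1 (P1). They are 8 of 54532 genes in the count table, found by gene symbol, and 6 of them passed the filter on low counts. The family was selected on its measured difference between the control and mutant libraries of this same study, so the difference of each member between these groups is given as a description, with no test. The control group held 3 libraries from *Tox3* f/f littermates (Tox3f/f in the labels), in which the *Tox3* gene carries sites for Cre recombinase and no Cre is named. The mutant group held 3 libraries from *Nestin-Cre;Tox3* f/f animals (Nestin-cre;Tox3f/f in the labels), in which Cre driven from a Nestin transgene, active in neural progenitors and their progeny, deletes *Tox3* in the nervous system. Both groups were floxed and of the same age, and all mutants but no labelled controls carried Cre, which means that effects of the transgene and of the deletion cannot be told apart. The sources do not say how many animals gave each library, and p-values below measure only the spread between these libraries.

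Nicotinic receptors are pentameric ion channels that open when acetylcholine binds. In neurons, α subunits encoded by *Chrna* genes combine with β subunits encoded by *Chrnb* genes, and the combination sets the affinity for acetylcholine, the calcium entry and the pharmacology of the channel. Receptors of α4 with β2 are the common high-affinity form of the brain, receptors of α3 with β4 are known from autonomic ganglia and the medial habenula, and α7 forms channels by itself. The genes for α5, α3 and β4 lie side by side in a conserved cluster, on chromosome 9 in the mouse, and the other members lie elsewhere. At P1 the cerebellum contains granule neuron progenitors and young granule neurons, together with Purkinje cells and the neurons of the deep nuclei.

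Total counts lay between 15391854 and 17178478 per library, and levels are given as CPM, counts relative to a TMM-normalized library total, on which 3 counts come to 0.196 CPM or less. *Tox3* itself stood at 64.3, 63.0 and 64.4 CPM in controls 1, 2 and 3 and at 55.3, 63.2 and 59.2 CPM in mutants 1, 2 and 3, a log2 fold change of −0.11 (standard error, SE, 0.06), and these counts over the whole gene do not check the labels. Reads of 4 Y-linked genes were present at 203 to 253 CPM in control 1 and mutants 1 and 3 and at no more than 0.128 CPM in the other libraries. Granule neuron progenitor markers fell in the mutants, 8 of 8 passing edgeR's quasi-likelihood test at a Benjamini-Hochberg adjusted p under 0.01 with a log2 fold change beyond 0.5 (the call rule used throughout), and their summed level went from between 1030 and 1130 CPM to between 397 and 435 CPM. Of 8 granule neuron markers 5 fell and 3 did not pass, and of 8 Purkinje cell markers 5 rose and 3 did not pass. In bulk RNA, fewer cells of a type and less RNA per cell cannot be told apart, and the part of cell composition in the differences below was not tested.

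The largest differences lay in the chromosome 9 cluster, but not in all of its genes. There, *Chrna3* and *Chrnb4* were 9.79-fold and 31.8-fold lower in the mutants, whereas *Chrna5*, which adjoins *Chrna3*, overlapped between the groups. Outside the cluster, *Chrna4* was 1.41-fold higher and *Chrnb2* was nearly level. By the call rule 2 of the 6 tested members were lower, against 3.63% of the 17505 tested genes, and 0 were higher, against 3.03%. *Chrna4*, at a log2 fold change of 0.49, stood short of the fold threshold, and it passed both thresholds in 7 of 13 alternative fits. Of the tested members, the 2 called lower lay below the controls in every mutant library, against 20.1% of tested genes. Only 1 tested member, *Chrna4*, lay above the controls in every mutant library, against 20.4%. As the family was selected on this contrast, nothing is read from these shares.

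**Figure D1:**
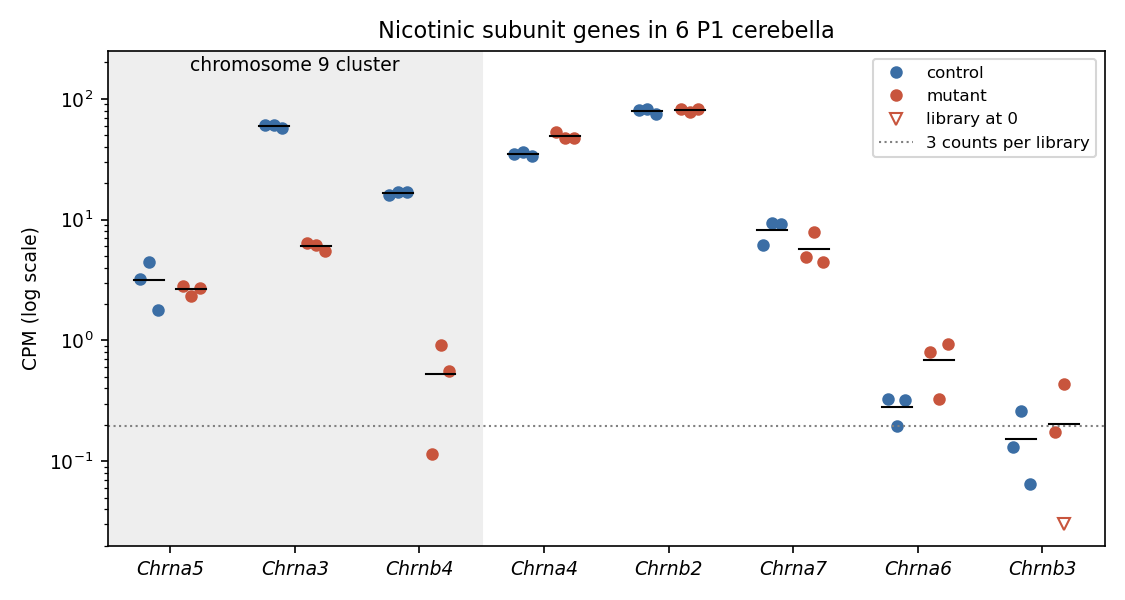
Each point is 1 library (blue, control; red, mutant), the vertical axis gives CPM on a log scale, black bars are group means and the dotted line marks 3 counts per library. *Chrna3* and *Chrnb4* in the shaded cluster stand apart between the groups (means of 59.3 and 6.04 CPM, and of 16.7 and 0.529 CPM), while *Chrna5* and *Chrnb2* overlap.

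*Chrna3* (ENSMUSG00000032303, chromosome 9 from 55010111 to 55026562 in GRCm38, minus strand) encodes α3, the ligand-binding subunit of ganglionic receptors. It gave 925, 925 and 894 counts in controls 1, 2 and 3 and 112, 95 and 88 counts in mutants 1, 2 and 3. The controls were all high and close together, the mutants were all low, and the groups lay far apart. The mean was 59.3 ± 1.62 CPM (SD, n = 3) in controls and 6.04 ± 0.506 CPM (SD, n = 3) in mutants, or 10.2% of the control level, a log2 fold change of −3.29 (SE 0.09).

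*Chrnb4* (ENSMUSG00000035200, chromosome 9 from 55028154 to 55048779, minus strand) encodes β4, the partner of α3 in ganglionic and habenular receptors. It gave 247, 260 and 264 counts in the controls and 2, 14 and 9 counts in mutants 1, 2 and 3. All mutants were low, mutant 1 lay below 3 counts, and no mutant came near a control. The level went from 16.7 ± 0.497 CPM to 0.529 ± 0.399 CPM (SD, n = 3 each), which is 3.18% of the control level and a log2 fold change of −4.99 (SE 0.32). Without mutant 2, the highest of the mutants, it read −5.61. Of 17505 tested genes, ordered by fitted log2 fold change from the lowest, *Chrnb4* stood at place 4 and *Chrna3* at place 13. Few reads were left to measure, and the 95% Poisson interval of mutant 1 ran from 0.242 to 7.22 counts, which covers counting error only.

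*Chrna5* (ENSMUSG00000035594, chromosome 9 from 54980880 to 55007779, plus strand) encodes α5, an accessory subunit that joins α3β4 or α4β2 receptors and does not form channels without them. Its counts were 50, 69 and 28 in the controls and 49, 36 and 44 in the mutants. The highest and the lowest library were both controls, and all mutants lay between them. The means were 3.18 ± 1.35 and 2.64 ± 0.256 CPM (SD, n = 3 each), with a log2 fold change of −0.27 (SE 0.31) that read 0.06 without control 2 and −0.55 without control 3. The Poisson intervals of control 2 (53.7 to 87.3 counts) and control 3 (18.6 to 40.5 counts) did not meet, so the spread among controls exceeded counting error.

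The genes with this contrast lie close together. The cluster spans 67.9 kb. *Chrna5* ends 2331 bases from the end of *Chrna3*, with which it converges on the opposite strand, and 1591 bases separate *Chrna3* from *Chrnb4*, which is transcribed in the same direction. The annotated starts of *Chrna5* and *Chrna3* are 45682 bases apart and those of *Chrna3* and *Chrnb4* 22217 bases. Strand use in the counting is not given in the sources used here. *Chrna3* and *Chrna5* overlap no other gene of GENCODE M21, and the opposite-strand gene that overlaps *Chrnb4* over 8647 bases, *Gm47877*, had at most 9 counts in any library.

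*Atoh1* encodes a factor of the basic helix-loop-helix family, which binds E-boxes (CANNTG). It was lower in the mutants (31.8 ± 0.873 against 0.362 ± 0.186 CPM, SD, n = 3 each), and its part in the differences of the cluster genes was not tested. The sequences before the starts of the cluster genes are shown as a description. They are the 250 bases before a RefSeq start in GRCm38.p6, at chr9:55026563-55026812 on the minus strand for *Chrna3* and at chr9:54980630-54980879 on the plus strand for the first of the *Chrna5* starts. Of *Chrnb4*, whose window at chr9:55048545-55048794 on the minus strand lies in annotated exons for 235 of its bases, only a short context is given, with its word at position −14 from the start. Capitals mark CANNTG words in the first and second sequences and CAGCTG in the third:
Chrna3: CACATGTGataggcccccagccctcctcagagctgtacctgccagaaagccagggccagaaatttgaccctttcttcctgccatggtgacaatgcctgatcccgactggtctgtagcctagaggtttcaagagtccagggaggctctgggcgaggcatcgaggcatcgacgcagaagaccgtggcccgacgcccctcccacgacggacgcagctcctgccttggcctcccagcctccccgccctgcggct
Chrna5: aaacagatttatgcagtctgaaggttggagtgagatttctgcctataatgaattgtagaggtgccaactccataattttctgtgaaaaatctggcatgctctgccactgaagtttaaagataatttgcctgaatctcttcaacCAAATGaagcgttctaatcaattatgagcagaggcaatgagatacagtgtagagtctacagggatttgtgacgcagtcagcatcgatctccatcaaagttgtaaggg
Chrnb4: cagagagactgcCAGCTGggacagac

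The *Chrna3* window opens with the overlapping words CACATG and CATGTG and holds 63.2% G and C, against a median of 52.4% over 32851 promoters. The *Chrna5* window shown holds the single word CAAATG and 40.0% G and C. The window of its second start, not shown, holds the words CACCTG and CAGGTG and 65.2% G and C. The specific words CAGATG and CAGCTG, searched on both strands, occurred before 1 of the 6 members with a RefSeq promoter entry (*Chrnb4*), and in 25.5% of all 32851 promoters. The looser word CANNTG occurred before 5 of these 6 members, *Chrna4* being the exception, and in 66.2% of all promoters. Members were counted by gene, with both *Chrna5* starts pooled, whereas the promoters were counted by single window, so these shares are not in the same unit. These words describe the windows only, and the binding data of the study were not analysed here.

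The other genes around the cluster did not follow *Chrna3* and *Chrnb4*. Within 500 kb on either side, 29 other genes were listed and 16 were tested. By the call rule in edgeR 0 of these fell, against 3.63% of all tested genes, and 1 rose, against 3.03%. An unadjusted p under 0.05 was found for 5 of the 16, against 6499 of the 17505 tested genes. With so few calls the neighbours cannot be set apart from that background. The log2 fold changes of the neighbours ran from −0.46 to 0.67 with a median of 0.05, against −0.01 over all tested genes. The nearest tested gene beside *Chrna5*, *Psma4* (a proteasome subunit, at −22.9 kb, negative toward lower coordinates), stood at 102 ± 7.44 and 98.4 ± 1.78 CPM (SD, n = 3 each; log2 fold change −0.06, SE 0.06, edgeR adjusted p = 0.542). The nearest beside *Chrnb4*, *Ube2q2* (a ubiquitin-conjugating enzyme, at 100 kb), stood at 64.8 ± 0.927 and 55.8 ± 3.71 CPM (log2 fold change −0.22, SE 0.07, edgeR adjusted p = 0.0365), short of the call rule. The gene that rose, *Dnaja4* (a heat shock co-chaperone, at −265 kb), went from 6.37 ± 1.12 to 10.2 ± 0.395 CPM (log2 fold change 0.67, SE 0.15, edgeR adjusted p = 0.00852). That call was lost when control 1, control 2 or any mutant was left out.

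**Figure D2:**
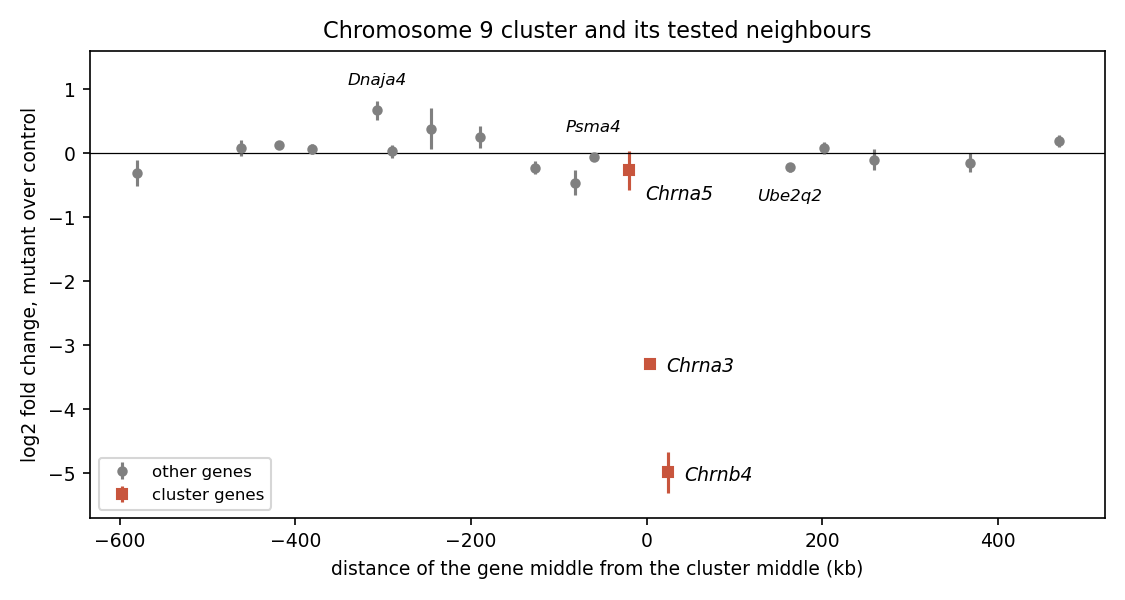
The horizontal axis gives the distance of each gene's middle from the middle of the cluster in kb, and the vertical axis the log2 fold change of mutant over control with its SE as a bar, for the 3 cluster genes (red squares) and 16 tested neighbours (grey circles). *Chrna3* (−3.29) and *Chrnb4* (−4.99) lie far below the neighbours, which range from −0.46 to 0.67, and *Chrna5* (−0.27) lies among them.

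*Chrna4* (ENSMUSG00000027577, chromosome 2 from 181018380 to 181043546, minus strand) encodes α4, the ligand-binding partner of β2. It gave 35.0, 36.5 and 33.8 CPM in the controls and 53.0, 47.6 and 47.6 CPM in the mutants. Every mutant lay above every control. The means were 35.1 ± 1.31 and 49.4 ± 3.10 CPM (SD, n = 3 each), with a log2 fold change of 0.49 (SE 0.08) that read between 0.44 and 0.53 with a library left out. Purkinje cell markers were also higher in every mutant for *Calb1* (log2 fold change 0.68, SE 0.07) and *Car8* (0.63, SE 0.06), and their part in the *Chrna4* difference was not tested.

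*Chrnb2* (ENSMUSG00000027950, chromosome 3 from 89746195 to 89764632, minus strand) encodes β2, the main β subunit of brain receptors. Its levels were 81.0, 82.4 and 74.6 CPM in the controls and 81.7, 77.8 and 82.8 CPM in the mutants. The groups overlapped, with control 3 lowest and mutant 3 highest. The means of 79.3 ± 4.20 and 80.8 ± 2.63 CPM (SD, n = 3 each) gave a log2 fold change of 0.03 (SE 0.06), and −0.02 was the lowest value with a library left out. *Chrnb2* overlaps *Adar*, an RNA editing enzyme on the opposite strand, over 7252 bases, and *Adar* had a log2 fold change of 0.02 (SE 0.06) and counts of 1743 to 2221 per library.

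*Chrna7* (ENSMUSG00000030525, chromosome 7 from 63098692 to 63212569, minus strand) encodes α7, the subunit of fast, calcium-permeable homomeric receptors. Its levels were 6.12, 9.31 and 9.25 CPM in the controls and 4.90, 7.89 and 4.48 CPM in the mutants. Mutants 1 and 3 lay below all controls, whereas mutant 2 lay above control 1, so the groups overlapped. The mean went from 8.23 ± 1.82 to 5.76 ± 1.85 CPM (SD, n = 3 each), a log2 fold change of −0.52 (SE 0.24) that read −0.80 without mutant 2 and −0.37 without mutant 3.

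The spread of *Chrna7* within both groups followed the presence of Y-linked reads, a split noticed after its values were seen. The libraries with such reads held 6.12 CPM in control 1 and 4.90 and 4.48 CPM in mutants 1 and 3. Those without them held 9.31 and 9.25 CPM in controls 2 and 3 and 7.89 CPM in mutant 2. The mutants lay below the controls within each class, and all libraries with Y-linked reads lay below all without. With the level of the Y-linked genes in the fit, the log2 fold change of *Chrna7* was −0.32 (SE 0.16). Within each class 1 group has a single library, and the part of sex or of the dissection in this spread was not tested.

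*Chrna6* (ENSMUSG00000031491, chromosome 8 from 27403212 to 27413944, minus strand) encodes α6, and *Chrnb3* (ENSMUSG00000031492, chromosome 8 from 27368711 to 27399730, plus strand) encodes β3, which are known together from receptors of catecholamine neurons. Neither passed the filter on low counts. *Chrna6* gave 5, 3 and 5 counts in the controls and 14, 5 and 15 counts in the mutants. Mutants 1 and 3 were higher, and mutant 2 had the same count as controls 1 and 3. Summed over 3 libraries this was 13 counts in controls (95% Poisson interval 6.92 to 22.2) and 34 in mutants (23.5 to 47.5). These intervals cover counting error only and leave out the spread between libraries. In a fit with no filter on low counts, the log2 fold change of *Chrna6* was 1.28 (SE 0.66). *Chrnb3* gave 2, 4 and 1 counts in the controls and 3, 0 and 7 in the mutants, sums of 7 (2.81 to 14.4) and 10 (4.80 to 18.4), and a difference was not detectable at this depth.

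Markers of noradrenergic neurons were high in the same mutant libraries as *Chrna6*. *Dbh*, the enzyme that makes noradrenaline, gave 9, 7 and 6 counts in the controls and 88, 11 and 200 in the mutants. *Slc6a2*, the noradrenaline transporter, gave 20, 26 and 48 counts in the controls and 244, 27 and 778 in the mutants, and *Th*, tyrosine hydroxylase, 4, 6 and 4 against 33, 2 and 33. Mutants 1 and 3 stood above all controls for the 3 genes, whereas mutant 2 did not for *Slc6a2* and *Th*. The summed level of the 5 genes of this list ran from 2.54 to 4.24 CPM in controls and from 2.87 to 64.5 CPM in mutants, with no defining marker at 0. Midbrain dopamine markers, a list of 6 that also holds *Th*, had a summed level of 12.8 to 14.8 CPM in controls and 12.9 to 24.2 CPM in mutants. Of these, *Slc6a3* gave 5, 8 and 9 counts in controls and 8, 4 and 11 in mutants. *Slc18a2* gave 107, 77 and 68 against 104, 56 and 221, and both genes stood above all controls only in mutant 3. The part of either list in the *Chrna6* counts was not tested. Choroid plexus markers also varied between libraries, with a summed level of 74.2 to 141 CPM in controls and 11.5 to 749 CPM in mutants.

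**Figure D3:**
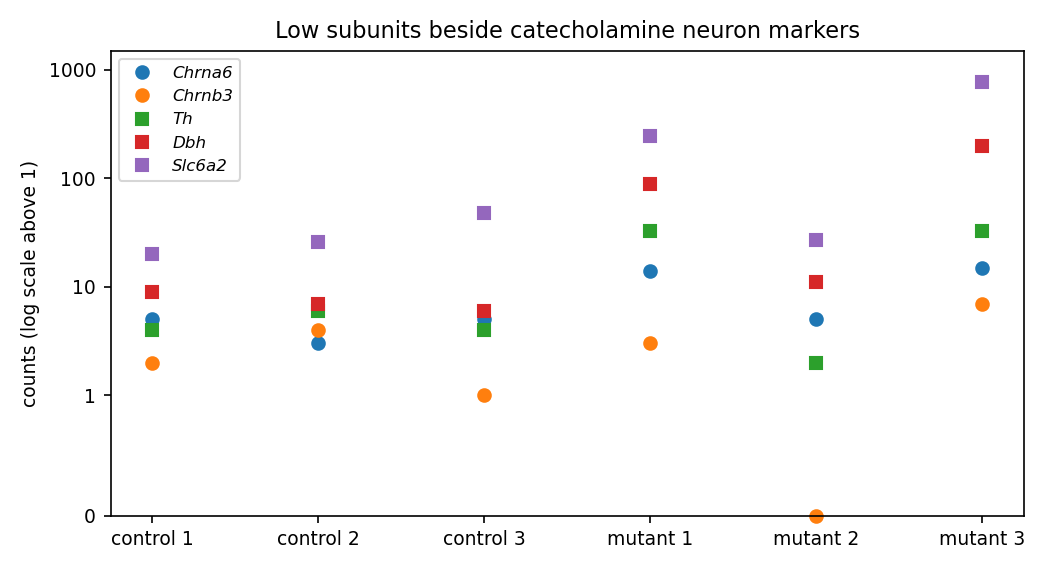
Counts of *Chrna6* and *Chrnb3* (circles) and of the noradrenergic neuron genes *Th*, *Dbh* and *Slc6a2* (squares) are plotted for each of the 6 libraries on an axis that is logarithmic above 1. Mutants 1 and 3, with 14 and 15 counts of *Chrna6*, are also the libraries with 88 and 200 counts of *Dbh*, and mutant 2 (5 and 11 counts) lies near the controls.

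Levels of different members were compared on the deposited FPKM scale, which divides by gene length. In controls the order of mean FPKM was *Chrna3* (11.2), *Chrnb2* (9.38), *Chrna4* (6.92), *Chrnb4* (4.43), *Chrna7* (1.81), *Chrna5* (1.01), *Chrna6* (0.0957) and *Chrnb3* (0.0236). The ranges of *Chrna7* and *Chrna5* overlapped, and those of all other neighbours in this order were separate. In mutants the order became *Chrna4* (9.80), *Chrnb2* (9.59), *Chrna7* (1.27), *Chrna3* (1.14), *Chrna5* (0.840), *Chrna6* (0.236), *Chrnb4* (0.141) and *Chrnb3* (0.0318). There the ranges overlapped between *Chrna4* and *Chrnb2*, between *Chrna7* and *Chrna3*, and among the last 3 in turn. On this scale *Chrna3* thus went from the highest member to the level of *Chrna7*, and *Chrnb4* to that of the members with few counts. By CPM, which does not divide by length, *Chrnb2* (79.3) stood above *Chrna3* (59.3) in controls.

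The summed FPKM of the 8 members was 34.6, 36.4 and 33.5 in the controls and 23.8, 22.6 and 22.8 in the mutants, with means of 34.8 ± 1.44 and 23.0 ± 0.678 (SD, n = 3 each). *Chrna3* and *Chrnb4* together were lower by 14.3 FPKM, *Chrna4* was higher by 2.87 FPKM, and the 8 members together were lower by 11.8 FPKM. The cluster genes made up 47.7 ± 0.392% of the sum in controls and 9.22 ± 0.266% in mutants. *Chrna4* and *Chrnb2* made up 46.8 ± 0.738% and 84.1 ± 1.55%. The share of *Chrnb2* went from 26.9% to 41.6% while its own level hardly differed, because the sum it was divided by was smaller. These are shares of transcript levels and not of receptors.

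**Figure D4:**
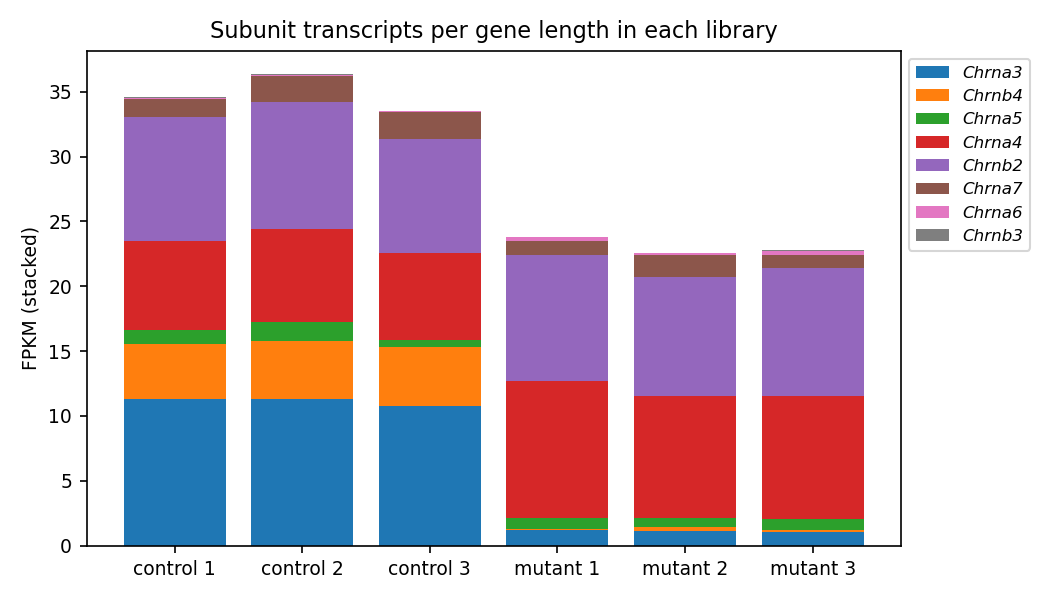
Bars give the FPKM of the 8 members stacked in each of the 6 libraries, 1 color a gene. The control bars reach 33.5 to 36.4 FPKM with *Chrna3* and *Chrnb4* at their base, and the mutant bars reach 22.6 to 23.8 FPKM and consist mainly of *Chrna4* and *Chrnb2*.

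Ratios within a library restate this shift without reference to other genes, and as they use the same values they give no further support. The FPKM ratio of *Chrna3* to *Chrna4* was 1.64, 1.58 and 1.62 in the controls and 0.116, 0.124 and 0.110 in the mutants. The ratio of *Chrna3* to *Chrna5*, its cluster neighbour, was 11.0, 7.96 and 19.0 in the controls and 1.36, 1.57 and 1.19 in the mutants. The ratio of the β subunits, *Chrnb2* to *Chrnb4*, was 2.24, 2.16 and 1.95 in the controls and 315, 37.9 and 65.7 in the mutants, where it rests on 2, 14 and 9 counts of *Chrnb4*. For each of these ratios the groups lay apart.

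The genes with the profile most like *Chrna3* over the 6 libraries, by the root mean square difference of mean-centered log2 CPM among 16647 genes, were *Ntf3* (0.29), the long noncoding RNA *Gm13479* (0.30) and *Barhl1* (0.36). *Ntf3*, which encodes the growth factor neurotrophin-3, went from 13.4 ± 1.09 to 1.24 ± 0.345 CPM (SD, n = 3 each), and *Barhl1*, a homeobox factor of granule neuron progenitors, from 307 ± 17.8 to 51.1 ± 2.86 CPM. Those most like *Chrnb4* were *Insm2* (0.49), a zinc finger factor that went from 11.8 ± 0.886 to 0.567 ± 0.312 CPM, *C230057A21Rik* (0.77), which had 0 counts in all mutants, and the pseudogene *Gm8615* (0.88). *Chrna3* and *Chrnb4* differed from each other by 1.31 on this measure, and *Chrnb4* stood at place 590 among the genes nearest to *Chrna3*. The 6 libraries fall into 2 groups, so the measure mostly ranks genes by the size of their difference between the groups.

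Genes beyond the 8 members that belong to the cholinergic system or act on these receptors or on the cluster were taken in 5 lists. Of their 38 genes 25 were tested, and by the call rule in edgeR 1 (*Ly6e*) fell, against 3.63% of all tested genes, and 2 (*Lypd1* and *Sox10*) rose, against 3.03%. With so few calls the lists cannot be set apart from that background. Their median log2 fold change was 0.00, against −0.01 over all tested genes. Among the other nicotinic subunits, which serve muscle and hair cell receptors for the most part, 1 of 8 was tested, *Chrnb1*, at 3.45 ± 0.513 and 3.38 ± 0.832 CPM (SD, n = 3 each; log2 fold change −0.03, SE 0.23, edgeR adjusted p = 0.937). *Chrna9* and *Chrnd* had 0 counts in all 6 libraries.

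Genes that make, carry and break down acetylcholine gave no call among 5 tested of 7. *Chat*, which makes acetylcholine, had 0, 5 and 1 counts in the controls and 2, 1 and 0 in the mutants, and *Slc18a3*, its vesicular transporter, 7, 12 and 8 against 2, 5 and 4 counts. Neither passed the filter on low counts. Every mutant lay below every control for *Slc18a3*, which was not tested, and *Chat* overlapped between the groups. *Ache*, acetylcholinesterase, was at 51.8 ± 2.77 and 69.4 ± 5.73 CPM (SD, n = 3 each; log2 fold change 0.42, SE 0.08, edgeR adjusted p = 0.00304), which passed the p-value but not the fold threshold. Muscarinic receptors, the G protein-coupled receptors for acetylcholine, gave no call among 4 tested of 5, and the smallest p was that of *Chrm3* (12.5 ± 0.950 and 9.87 ± 0.601 CPM, log2 fold change −0.34, SE 0.11, edgeR adjusted p = 0.0539).

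Chaperones help nicotinic receptors assemble, and Ly6 proteins bind to them and tune their gating. Of 12 such genes 10 were tested, and the 2 called, in opposite directions, were both Ly6 proteins. *Ly6e*, a Ly6 protein, fell from 91.1 ± 6.44 to 55.0 ± 1.95 CPM (SD, n = 3 each; log2 fold change −0.73, SE 0.07, edgeR adjusted p = 6.78e-05). *Lypd1*, also called Lynx2, a Ly6 protein that binds nicotinic receptors, rose from 10.2 ± 1.17 to 18.9 ± 1.76 CPM (log2 fold change 0.88, SE 0.12, edgeR adjusted p = 0.000632). For both genes every mutant lay on the same side of every control. The chaperone *Tmem35a*, also called NACHO (38.1 ± 1.71 and 48.2 ± 2.17 CPM, log2 fold change 0.34, SE 0.07, edgeR adjusted p = 0.00724), and the Ly6 protein gene *Ly6h* (177 ± 12.5 and 225 ± 5.18 CPM, log2 fold change 0.35, SE 0.06, edgeR adjusted p = 0.00172) passed the p-value but not the fold threshold. *Lynx1*, the prototype of this family, was at 79.7 ± 3.72 and 79.7 ± 4.83 CPM (log2 fold change 0.00, SE 0.06).

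Transcription factors that are known to act on the cluster's promoters in other tissues did not fall by the call rule, with 5 tested of 6. *Sox10*, a factor of oligodendrocyte and neural crest lineages, rose from 20.6 ± 0.396 to 40.2 ± 2.38 CPM (SD, n = 3 each; log2 fold change 0.97, SE 0.08, edgeR adjusted p = 3.78e-05). *Sp1* (log2 fold change −0.38, SE 0.08, edgeR adjusted p = 0.00493) and *Sp3* (−0.34, SE 0.07, edgeR adjusted p = 0.00766) passed the p-value but not the fold threshold.

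**Figure D5:**
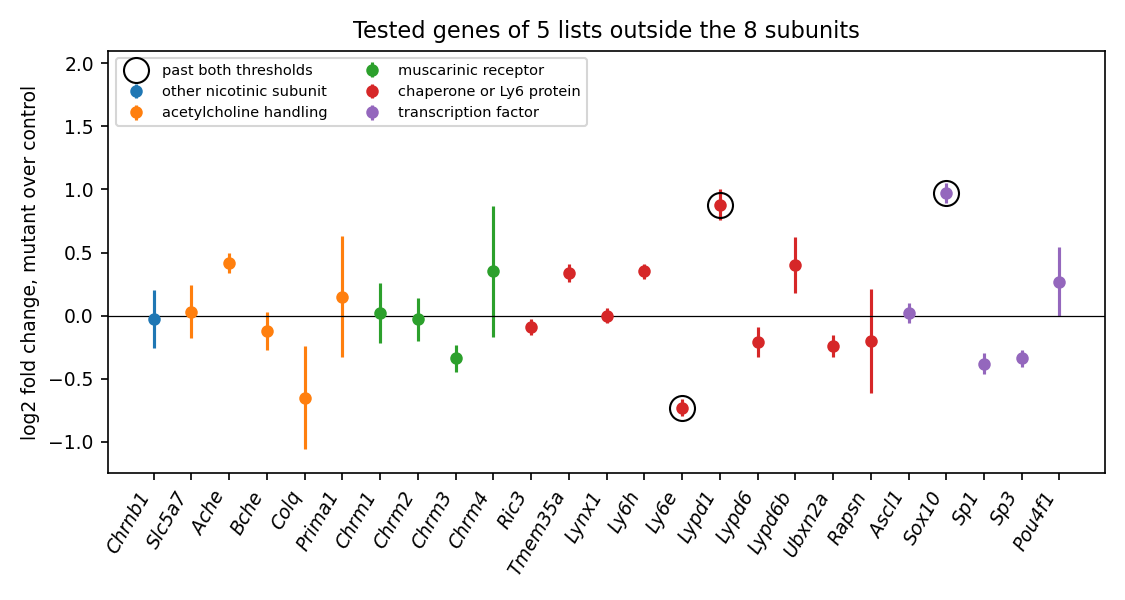
Points give the log2 fold change of mutant over control for the 25 tested genes of the 5 lists, colored by list, with the SE as a bar and a circle around genes past both thresholds. *Ly6e* (−0.73) is circled below the line, *Lypd1* (0.88) and *Sox10* (0.97) above it.

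Markers of the medial habenula and of cholinergic neurons, cell types outside the cerebellum, did not fall by the call rule where they were tested. Of 5 medial habenula markers 4 were tested, 0 fell, against 3.63% of all tested genes, and 1 rose, against 3.03%. An unadjusted p under 0.05 was found for 1 of the 4. The summed level of the 5 markers was 44.1 to 51.2 CPM in controls and 57.7 to 65.5 CPM in mutants. Most of that difference lay in the one that rose, *Calb2*, which encodes calretinin, a protein that other neurons also make (31.9 ± 3.35 to 47.3 ± 4.62 CPM, SD, n = 3 each; log2 fold change 0.57, SE 0.10, edgeR adjusted p = 0.0028). *Gpr151*, a habenular receptor, had 9 counts in each control and 2, 12 and 7 in the mutants, and *Tac2* and *Nwd2* stood at 1.42 and 11.4 CPM in controls and 1.26 and 10.9 CPM in mutants. Motor and other cholinergic neuron markers had a summed level of 6.51 to 9.44 CPM in controls and 7.61 to 10.6 CPM in mutants, with no call among 3 tested of 6 and the lower counts of *Slc18a3* given above. Granule neuron progenitor markers moved in the same direction as *Chrna3* and *Chrnb4*. Their log2 fold changes ran from −6.40 for *Atoh1* to −0.53 for *Gli1*, with a median of −1.26. The 8 granule neuron markers also all had negative log2 fold changes, with a median of −0.76. Among unipolar brush cell markers *Eomes* was at −0.42 (SE 0.06) and *Lmx1a* at 0.21 (SE 0.15). Of 5 glutamatergic nuclear neuron markers 1 was negative, and their median was 0.22. The part of any of these lists in the difference was not tested.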

How the data were processed

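Poly-A RNA from P1 cerebella was sequenced by the study in 6 libraries, 3 control and 3 mutant by their labels. Per the labels, the authors aligned reads to mm10 with HISAT2 2.0.5 and deposited unnormalized counts per gene from featureCounts 1.5.0-p3. FPKM values, which divide the counts by gene length and depth, were also deposited by the authors. The annotation release, whether strand was used and how multi-mapping reads were treated are not given in the sources used here. All 8 members' coordinates equal those of GENCODE M21.

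Counts were filtered (filterByExpr), TMM-normalized and compared over all 17505 kept genes with edgeR 4.0.16 (glmQLFit, glmQLFTest) in R 4.3.3, with Benjamini-Hochberg adjustment. The SE of an edgeR log2 fold change was derived from its test, as the absolute value divided by the square root of the F statistic. A call needed both an adjusted p below 0.01 and a log2 fold change past 0.5. CPM used TMM-normalized library totals, the raw totals were 15391854 to 17178478 counts, and the common dispersion was 0.0105. Intervals are exact Poisson intervals at 95% and cover counting error only. With 3 against 3 libraries an exact two-sided permutation p cannot go below 0.1, and none was computed. Same-group libraries differed by more than sampling noise (chi-square per gene 3.64 to 10.05). Promoters came from RefSeq (GRCm38.p6), with entries for 6 members. Likeness was ranked among genes whose mean reached 1 CPM in a group, on log2 CPM after 0.5 counts were added to each library.

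The members, lists and rules were chosen with earlier results of these data known. Named were the 8 members, called genes of the cholinergic lists or the smallest p of a list without calls, called genes and nearest neighbours around the cluster, the 3 genes most like *Chrna3* and *Chrnb4*, up to 3 genes per marker list in list order, *Tox3* and *Atoh1*. Named beyond this rule, after their values were seen, were *Sp1*, *Sp3*, *Tmem35a*, *Ly6h*, *Lynx1*, *Chrna9*, *Chrnd*, *Calb2* and the overlapping genes. Alternatives were DESeq2 1.42.0, other size factors and filters, the replicate number as a block, Y-linked genes as a covariate, each library left out, other windows and thresholds, recomputed FPKM and another likeness measure. The search for CANNTG was added after the data had been seen. Every script that fits across genes was tested on simulated data.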

Additional observations from a re-analysis of the deposited data

How the results depend on the processing

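Over 13 alternative fits, the log2 fold change of each tested member moved from its main value by less than the SD of log2 CPM within groups. That SD was 0.999 for *Chrnb4* and 0.0909 for *Chrna3*. The ranges were −5.61 to −4.49 for *Chrnb4* (12 fits, as it could not be fitted with at least 10 counts in every library) and −3.34 to −3.23 for *Chrna3* with 1 library left out. From end to end these ranges were wider than the SD. Leaving out libraries gave 0 to 1 risen neighbours of the cluster. A window of 250000 bases gave 0. At an adjusted p under 0.05 with any fold, 1 neighbour fell, and 3 genes of the related lists fell and 5 rose. Shares of counts, without length, were 29.3% and 4.14% for *Chrna3* and 39.2% and 55.3% for *Chrnb2* in controls and mutants, a change that follows from their gene lengths. With CANNTG in place of the specific words, 5 members held an E-box word before the start. By Pearson correlation in place of the root mean square difference, the genes most like *Chrna3* were *Anp32a*, *Ppp2r2c* and *Slc29a1*, and those most like *Chrnb4* were *Rad51ap1*, *Insm2* and *Sinhcaf*. Without mutant 3, 349 genes rose in the whole table, against 530.

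Whether equal replicate numbers in the labels pair the libraries was left undecided. Over the tested genes, deviations of same-numbered libraries correlated at 0.271, 0.285 and −0.125. Those of differently numbered control and mutant libraries correlated at −0.420 to 0.245. The correlations were positive between libraries alike in the presence of Y-linked reads and negative between the others. They therefore cannot tell a pairing by number from that split. With the replicate number as a block, *Chrnb4* read −5.01, *Chrna3* −3.29, *Chrna5* −0.21 and *Chrna7* −0.53, calls in the whole table were 696 lower and 561 higher, against 635 and 530, and the counts for lists and neighbours did not move. Depth limits *Chrna6*, *Chrnb3* and the mutant level of *Chrnb4*, where 3 counts correspond to at most 0.196 CPM.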
